A study of Mus musculus with 12 samples.

Results

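The adenylyl cyclases and the Pde4 phosphodiesterases make and break down cyclic AMP (cAMP), and 10 of their genes were followed here, out of 23953 genes in the RNA tables: Adcy1, Adcy2, Adcy5, Adcy6, Adcy8, Adcy9, Pde4a, Pde4b, Pde4c and Pde4d. They were taken by gene symbol and were selected on the values reported here, namely their 5hmC peaks and their RNA levels in these libraries, so differences between groups are described and none is tested. 5-hydroxymethylcytosine (5hmC), which TET enzymes make from methylated cytosine and of which neurons hold much, was mapped in whole hippocampus of male C57BL/6 mice after a single acute stress. The stress group (6 mice) was restrained in a tube for 30 min at 2 h after lights-on, housed singly for 1 h and then killed under isoflurane, and the control group (5 naive mice) was taken from the cage as the restraint began and killed, also under isoflurane, without restraint. Stress, handling, single housing and the later hour of killing therefore cannot be told apart. The sample tags give postnatal day 28 and the protocol gives an age of 7 weeks. DNA was pooled from at most 2 mice per library, giving 3 stress and 3 control lists of 5hmC peaks, and RNA of the same pools was deposited as 1 table of transcript levels per group.

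Adenylyl cyclases are membrane enzymes that turn ATP into cAMP when G protein-coupled receptors engage a stimulatory G protein, and cAMP acts mainly through protein kinase A, Epac exchange factors and cyclic nucleotide-gated channels. Adcy1 and Adcy8 encode the forms that calcium and calmodulin stimulate, which are known for their part in hippocampal synaptic plasticity. Phosphodiesterases of the Pde4 family end the signal by hydrolysing cAMP, and the genes use several start sites to make long and short forms, of which the long ones are activated by protein kinase A.

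The 6 lists held 15195 to 31654 peaks, with stress 2, stress 3 and control 2 the longest, and the lowest score in each was 50. Longer lists tend to give a gene more peaks, so each gene's peaks per 100 kb of body were also divided by the peaks per 100 kb over the bodies of all 13851 genes of at least 10 kb in the same library. This quotient is called the relative density below, and 1 means as many peaks per length as all these bodies pooled, in which long genes weigh more. The divisor ranged from 0.914 to 1.87 peaks per 100 kb. Libraries had roughly 25000000 to 35000000 uniquely mapped reads, per the labels, which give no value for a single one. A gene without a listed peak may still hold 5hmC under the score limit. With 3 against 3 libraries no exact test can go below p = 0.1. The pools are the replicates, and the labels do not say which pool held 1 mouse.

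The start sites of these genes differ widely in CpG content, the dinucleotide at which 5hmC mostly lies. The sequences shown here are examples from both ends of that range and the start sites of the 2 Pde4b transcripts of shortest genomic span. No 5hmC region described below was placed in these stretches. RefSeq promoter windows of 300 bases (250 before and 50 from the start site, GRCm38.p6) were on hand for 8 of the 10 genes, with 13 windows in all. The 250 bases before the start are printed 5′ to 3′ on the gene's strand, with each CpG in capitals.
Adcy1, the gene with no 5hmC peak, chr11:7063183-7063432 (+): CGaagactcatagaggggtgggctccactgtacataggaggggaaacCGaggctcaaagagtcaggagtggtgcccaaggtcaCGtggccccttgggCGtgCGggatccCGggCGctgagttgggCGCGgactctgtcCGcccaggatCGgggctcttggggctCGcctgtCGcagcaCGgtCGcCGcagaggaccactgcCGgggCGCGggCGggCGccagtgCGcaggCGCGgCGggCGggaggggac
Adcy5, with a peak region near its start, chr16:35154614-35154863 (+): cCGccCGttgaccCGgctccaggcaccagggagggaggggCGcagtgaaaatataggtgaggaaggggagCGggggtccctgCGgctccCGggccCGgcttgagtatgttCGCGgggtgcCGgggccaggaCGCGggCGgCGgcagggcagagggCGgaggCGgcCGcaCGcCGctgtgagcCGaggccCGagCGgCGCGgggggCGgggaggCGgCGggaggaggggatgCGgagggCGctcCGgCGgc
Pde4d, the longest of the genes, chr13:108653927-108654176 (+): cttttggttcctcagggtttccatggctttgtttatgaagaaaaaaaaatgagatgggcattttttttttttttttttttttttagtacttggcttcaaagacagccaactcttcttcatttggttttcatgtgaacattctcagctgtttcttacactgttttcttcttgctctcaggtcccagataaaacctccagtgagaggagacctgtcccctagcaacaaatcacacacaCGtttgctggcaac
Pde4b, start of NM_001177982, chr4:102587308-102587557 (+): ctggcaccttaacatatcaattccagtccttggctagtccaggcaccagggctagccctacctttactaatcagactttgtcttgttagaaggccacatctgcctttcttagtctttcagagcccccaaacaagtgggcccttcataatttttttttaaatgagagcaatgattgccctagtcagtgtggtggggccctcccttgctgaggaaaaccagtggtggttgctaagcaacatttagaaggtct
Pde4b, start of NM_001177981, chr4:102589593-102589842 (+): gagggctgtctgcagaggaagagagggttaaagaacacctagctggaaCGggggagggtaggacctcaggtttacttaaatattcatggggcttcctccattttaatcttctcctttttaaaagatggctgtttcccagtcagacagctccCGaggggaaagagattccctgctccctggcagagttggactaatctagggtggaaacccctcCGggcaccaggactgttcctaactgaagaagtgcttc
The last pair was assigned to transcripts because the starts lie 2285 bp apart in the promoter table and in the RNA tables alike. The printed stretches hold 26 CpG in Adcy1, 32 in Adcy5, 1 in Pde4d, 0 before NM_001177982 and 3 before NM_001177981. Over the whole windows, Adcy5 (44 CpG), Adcy9 (42), Adcy1 (37) and Adcy2 (32) lay at or above percentile 91.4 of all 32851 windows, whose median was 7. Pde4d (2 CpG) and the 4 windows of Pde4b (1 to 8) lay between percentiles 14.1 and 54.2. The windows of Pde4a held 29, 13 and 7 CpG, at percentiles 88.3, 63.7 and 51.35. That of Pde4c held 3, at percentile 31.4. The full cAMP response element TGACGTCA, searched on both strands, was in none of the 13 windows and in 1.79% of all windows. The shorter TGACG, which the full element also contains, was found once each in Adcy9, in 1 window of Pde4b and in 1 window of Pde4a, and in 20.8% of all windows. The palindromic glucocorticoid response element, with any 3 bases between its arms, was in none of the 13 windows and in 0.00913% of all.

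Of the 10 gene bodies, Adcy6 held 5hmC peaks most densely and Adcy1 held none. Together the 10 bodies span 2749 kb and held 28, 48 and 50 peaks in stress libraries 1, 2 and 3, and 39, 58 and 31 in control libraries 1, 2 and 3. The pooled relative density was 1.05 ± 0.0713 in stress and 1.28 ± 0.101 in control libraries (SD, n = 3 each). The 3 stress values (0.973 to 1.11) lay below the 3 control values (1.18 to 1.38), and the groups overlapped with percent of body covered in place of peak number and with the higher-scoring 50% of each list. The 4 Pde4 genes pooled by length had 0.911 ± 0.0813 in stress and 1.38 ± 0.216 in control libraries (n = 3 each) without overlap, and most of that length is Pde4d (1302 of 1729 kb). This pooled value does not hold for each gene. Pde4b and Pde4d had the higher mean in control libraries, and Pde4a and Pde4c in stress libraries, and of the 4 only Pde4b had groups apart on its own. The 6 cyclases had 1.28 ± 0.291 and 1.12 ± 0.230, and their groups overlapped.

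**Figure D1:**
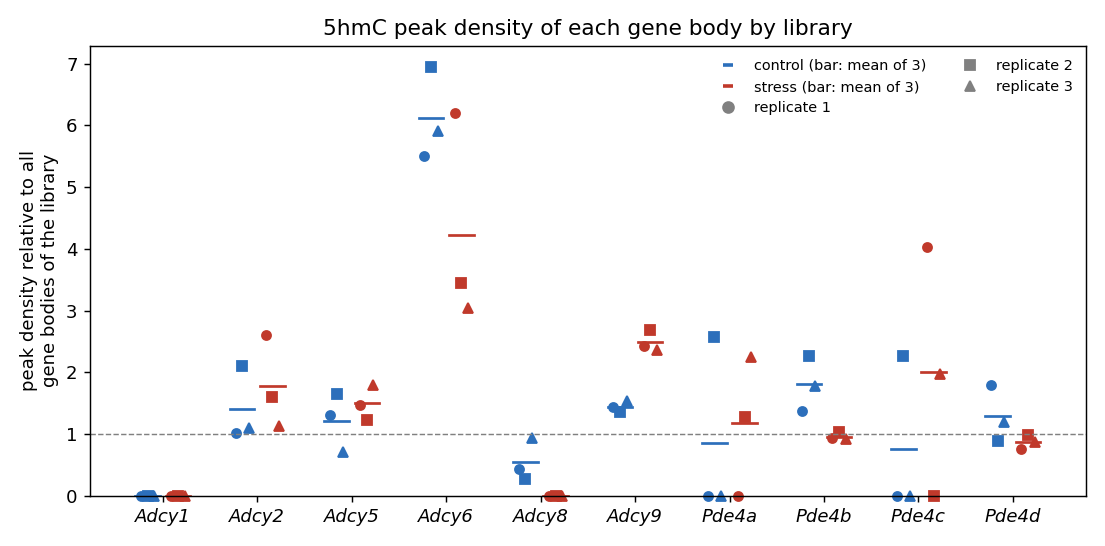
Relative 5hmC peak density (vertical axis, no unit) of the 10 genes in each of the 6 libraries, with the mean of each group as a bar. The dashed line at 1 stands for the bodies of all genes of at least 10 kb pooled. Adcy6 lies between 3.03 and 6.94 in all libraries, Adcy1 at 0, and the groups part without overlap for Adcy8, Adcy9 and Pde4b.

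By relative density, 3 of the 10 genes had groups that did not overlap: Adcy9 was higher in stress, and Adcy8 and Pde4b were higher in control libraries. Among all genes of at least 10 kb, 3.31% were higher in all 3 stress libraries and 3.03% in all 3 control libraries, and among those with a peak in any list 4.55% and 4.16%. By peaks per 100 kb without the divisor, only Adcy8 of the 10 had groups apart (background 1.91% higher in stress and 0.505% higher in control). When every list was cut to equally many top-scoring peaks, only Pde4b kept its groups apart in relative density (4.11% of all genes). It was then also the only one apart without the divisor, where Adcy8 was no longer apart. With the higher-scoring 50% of each list none of the 10 was apart on either scale (4.17% and 1.97% of all genes). Leaving out a library makes groups of all genes part more often. Without control 2, 5 of the 10 genes were apart in relative density, with Adcy2 and Pde4d added, against 12.96% of all genes in either direction, where all libraries gave 6.35%. Without stress 1 it was 4 of the 10, against 12.8%. Without the divisor it was 3 of the 10 lacking control 2 and 2 lacking stress 1, against 7.30% and 9.34% of all genes. These values took part in the choice of the genes and support no call.

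Adcy1, at 115 kb on chromosome 11 (6963492 to 7078508, mm9, plus strand), held no peak in any of the 6 lists. It was the gene with the most RNA of the 10. Of 504 genes at least 100 kb long with at least 10 FPKM in both tables, 23 (4.56%) had no peak in any list, while 58 (25.2%) of 230 such long genes below 0.1 FPKM had none. The neighbourhood was not empty: the 100 kb downstream of Adcy1 held 1 to 4 peaks in each library. The 100 kb upstream held 3 peaks in control 2 and none in the other libraries.

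Adcy8, the other calcium-stimulated cyclase gene (223 kb on chromosome 15, 64530597 to 64753858, minus strand), was nearly free of peaks. Control libraries 1, 2 and 3 held 1, 1 and 2 peaks in it and no stress library held any. The 4 peaks fell in 3 regions, of which 1, over exon 7, was shared by control 1 and control 3. The group difference thus rests on 4 peaks, and no peak was listed within 100 kb upstream in any library. The 100 kb downstream held 1 peak in stress 1, 2 in stress 3 and none in the other libraries.

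Adcy2 encodes a cyclase that G protein beta-gamma subunits can stimulate, and spans 380 kb on chromosome 13 (68758920 to 69138419, minus strand). It held 9, 10 and 8 peaks in stress libraries 1, 2 and 3 and 4, 13 and 4 in control libraries. Relative to the library, these were 2.60, 1.60 and 1.13 in stress and 1.02, 2.1 and 1.10 in control. Control 2 was as high as the stress libraries, so the groups overlapped. Without control 2, both densities were higher in all stress libraries. One of its 21 regions, in intron 1 and 15.2 kb from the start, was found in all 6 lists (13:69122391 to 69124018), and another in intron 1, 6.04 kb from the start, in all but control 3. The 4 regions found in 3 stress lists but not in all control lists included the last exon, exon 25 (stress 1, 2 and 3 and control 2).

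Adcy9 encodes a cyclase that forskolin, a plant activator of the other membrane forms, stimulates poorly, and spans 136 kb on chromosome 16 (4284886 to 4420498, minus strand). It held 3, 6 and 6 peaks in stress libraries 1, 2 and 3 and 2, 3 and 2 in control libraries. The relative densities were 2.42, 2.68 and 2.37 in stress and 1.43, 1.35 and 1.54 in control libraries, with means of 2.49 ± 0.170 and 1.44 ± 0.0916 (SD, n = 3 each). Every stress library was above every control library on this scale. The most constant region lay 2.09 kb from the start, over exon 2 (4417425 to 4419399), and was in all 6 lists. A region at the 3′ end, over exon 11 (4287267 to 4289144), was in all but control 1, and 1 in intron 5 (4308017 to 4310791) was in the 3 stress lists and in control 2. No region of Adcy9 was in all stress lists and no control list. Of its 8 regions 3 were found in a single list, each time stress 2 or stress 3, which are among the longest lists. Single-list regions made up 55.8% of all regions in gene bodies.

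Adcy5 and Adcy6 encode the cyclases that calcium inhibits, and each held 1 region found in all 3 control lists and no stress list. Adcy6 is the shortest of the 10 genes (17.6 kb on chromosome 15, 98420421 to 98438064, minus strand), and its few peaks gave it percentile 98.0 of all genes of at least 10 kb by mean relative density. Stress libraries 1, 2 and 3 held 1 peak each, control 1 and 3 also 1 each, and control 2 held 2. The positions were not the same in both groups. In the control lists a peak lay over the start site and exon 1 (98435722 to 98438216), and in the 3 stress lists and control 2 a peak lay over exon 2 (98433850 to 98435491). The regions are 230 bp apart, and bridging gaps of up to 500 bp joined them into 1 region found in all 6 lists. The control peaks at the start had scores of 61.2, 64.1 and 83.1 in control 1, 2 and 3, at percentiles 50.3, 50.5 and 85.3 of their own lists.

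Adcy5, known best as the main cyclase of the striatum, spans 149 kb on chromosome 16 (35155722 to 35304635, plus strand). It held 2, 3 and 5 peaks in stress and 2, 4 and 1 in control libraries, and the groups overlapped in relative density (1.50 ± 0.288 and 1.22 ± 0.478, SD, n = 3 each). Its control-only region was 1850 bp long in intron 1, 79.4 kb from the start (35234214 to 35236063). The scores there were low, at percentiles 20.9, 6.40 and 37.1 of the lists of control 1, 2 and 3, and the region was lost when lists were cut to equal length by score. The nearest other region, 1946 bp away, was found in stress 1 and stress 3 only. A region reaching to within 1 kb of the start, from 35156520 to 35157665, was in stress 2, stress 3, control 1 and control 2. The 3 longest regions of Adcy5 lay in intron 1. The direction for Adcy5 depended on the measure. By percent of body covered, relative to all bodies, it was higher in all 3 stress libraries (6.69% of all genes were apart in either direction), while with lists cut to equal length by score its mean relative density was lower in stress (difference -0.259, against 0.281 with all peaks), with overlap.

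**Figure D2:**
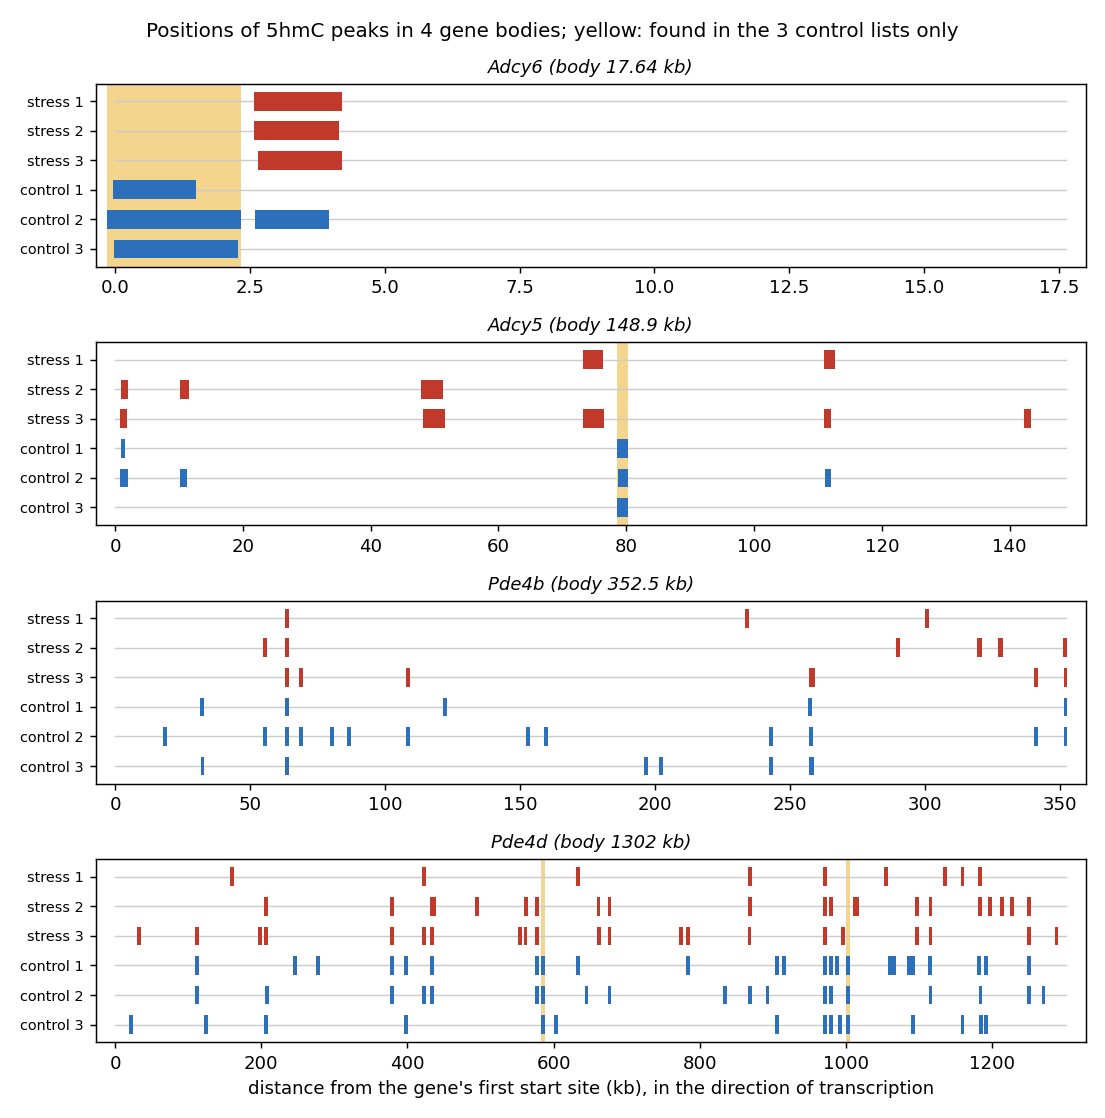
Peaks of each library (red, stress; blue, control) along Adcy6, Adcy5, Pde4b and Pde4d, by distance from the first start site in kb, with regions found in the 3 control lists only in yellow; very short peaks are widened to stay visible. In Adcy6 the merged region at the start (control lists only) and that over exon 2 (stress lists and control 2) lie 230 bp apart. In Pde4d the 2 control-only regions lie 586 and 1003 kb from the start.

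Pde4d, whose product is a main cAMP phosphodiesterase of neurons, is the longest gene of the set (1302 kb on chromosome 13, 109444371 to 110746177, plus strand). It held 9, 21 and 21 peaks in stress libraries 1, 2 and 3 and 24, 19 and 15 in control libraries 1, 2 and 3. Relative to the library, these were 0.757, 0.979 and 0.863 in stress and 1.79, 0.894 and 1.20 in control. Control 2 fell within the stress range, so the groups overlapped, and control 1 stood highest although its list was among the shorter ones. The 58 regions of Pde4d included 33 found in a single list and 1 found in all 6, in intron 3 at 971 kb from the start (110414931 to 110416607).

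Pde4d held 2 control-only regions, both in intron 3 of the only Pde4d transcript in the tables. The first (110029574 to 110030788, 1215 bp) lay 586 kb from the start, and its scores were at percentiles 91.0, 55.2 and 23.5 of the lists of control 1, 2 and 3. The second (110447083 to 110448032, 950 bp) lay 1003 kb from the start, at percentiles 59.2, 66.8 and 56.9. Both remained when lists were cut to equal length by score, and 1 of the 2 remained with the higher-scoring 50% of each list. In these settings 0.681% and 0.431% of all regions in gene bodies were control-only. The nearest other regions were 6555 and 5794 bp away.

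Pde4b spans 353 kb on chromosome 4 (101927347 to 102279867, plus strand) and encodes a phosphodiesterase of neurons and immune cells. It held 3, 6 and 6 peaks in stress libraries and 5, 13 and 6 in control libraries 1, 2 and 3. The relative densities were 0.931, 1.03 and 0.911 in stress and 1.38, 2.26 and 1.77 in control libraries, with means of 0.958 ± 0.0653 and 1.80 ± 0.442 (SD, n = 3 each). All control values were higher. One region, in intron 1 at 63.6 kb from the first start, was in all 6 lists (101990339 to 101991570), and another, in intron 5 (102184295 to 102186861), was in the 3 control lists and in stress 3. No region was within 1 kb of any of its 5 start sites. Of its 22 regions, 13 were found in a single list, as were 55.8% of all regions in gene bodies. Of the 13, 8 were in a control and 5 in a stress library. Most of the 8 were in control 2, the longest control list.

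Pde4a (47.5 kb on chromosome 9) and Pde4c (27.1 kb on chromosome 8) held few peaks. Pde4a had 0 to 2 peaks per library, all of them in stress 2, stress 3 and control 2, which are the longest lists. Pde4c, the family member with the least RNA in this tissue, had 1 region over exons 8 to 14, found in stress 1, stress 3 and control 2. The relative density of Pde4a was 1.18 ± 1.13 in stress and 0.859 ± 1.49 in control libraries, and that of Pde4c 2.00 ± 2.02 and 0.753 ± 1.30 (SD, n = 3 each). Both means were higher in stress libraries, with SDs about as large as the means, and in both genes the groups overlapped.

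Over all 10 genes there were 125 regions, 4 of them control-only (3.20%) and 0 stress-only. Among 41088 regions in the bodies of all genes of at least 10 kb, 0.37% were control-only and 1.17% stress-only. By gene, 3 of the 10 held a control-only region, against 1.09% of all genes of at least 10 kb, and 0 held a stress-only one, against 3.53%. These regions are among the values by which the genes were chosen, and long genes such as Pde4d hold more regions, so the shares are given as a description. Without control 2 the genes held 10 control-only and 5 stress-only regions (1.37% and 3.03% of all regions in gene bodies), and without stress 1 there were 4 and 6 (0.524% and 5.38%). Without stress 2 or without stress 3 there was 1 stress-only region (2.85% and 2.64%). Regions found in 4 or more lists made up 17.6% of the 125, against 11.6% of all regions in gene bodies.

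Peaks of these genes were mostly intronic. By the centre of each peak, exons took 19.9% ± 5.21 of the genes' peaks in stress and 10.7% ± 4.55 in control libraries (SD, n = 3 each), and the groups overlapped (14.6% to 25.0% and 6.45% to 15.5%). Across all genes of at least 10 kb the same shares were 14.3% ± 0.211 and 11.4% ± 1.04. Within 1 kb of a start site lay the centre of 1 peak in all 6 lists, in control 1.

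RNA levels of the 10 genes covered a wide range, with the highest level in the gene without a peak. They are given in FPKM, in which the fragments of a transcript are divided by its length and by the sequencing depth, so that genes can be set side by side. The mean of both tables was 69.7 FPKM for Adcy1, 21.6 for Adcy2, 12.9 for Adcy9, 9.95 for Pde4a, 9.58 for Pde4b, 8.38 for Adcy5, 5.50 for Pde4d, 3.31 for Adcy6, 2.53 for Adcy8 and 0.0413 for Pde4c. With 1 table per group there is no spread to set against these gaps, and in such tissue pools fewer cells of a type and less RNA per cell cannot be told apart. The order of Pde4a, Pde4b and Adcy5 differed between the tables, and that of the others was the same. Adcy1 alone made up 59.5% (control) and 58.3% (stress) of the summed FPKM of the 6 cyclases.

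**Figure D3:**
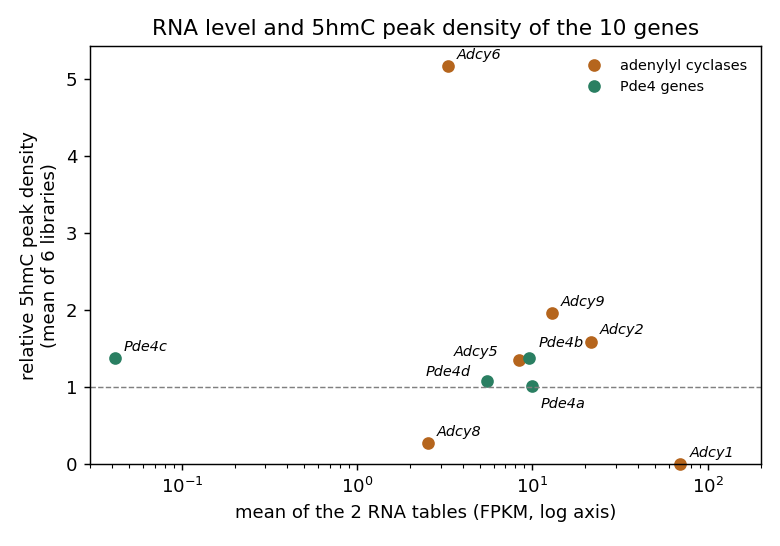
RNA level (mean of the 2 tables, FPKM, log axis) against relative 5hmC peak density (mean of 6 libraries) for the 6 cyclase and 4 Pde4 genes, 1 point per gene. Adcy1 has the highest RNA level, 69.7 FPKM, and no peak, and Adcy6, at 3.31 FPKM, has the highest density, 5.17.

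All 6 cyclase genes had slightly more RNA in the stress table, and the Pde4 genes lay on both sides of 0. Differences are log2((stress + 1)/(control + 1)), which understates the change of low genes, and the median over the 11071 genes whose mean reached 1 FPKM was 0.08. Adcy5 went from 7.46 FPKM without stress to 9.29 with it (0.28), Adcy6 from 2.92 to 3.70 (0.26) and Adcy2 from 19.9 to 23.3 (0.22). Adcy9 stood at 12.1 and 13.8 FPKM (0.18), Adcy1 at 65.5 and 74.0 (0.17) and Adcy8 at 2.32 and 2.74 (0.17). The 6 differences lay between percentiles 71.6 and 89.2 of all these genes, none of them extreme.

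Of the phosphodiesterases, Pde4d stood at 5.26 FPKM without and 5.74 with stress (log2 difference 0.11), Pde4a at 9.70 and 10.2 (0.06, and -0.02 once the median of all genes is subtracted) and Pde4b at 9.96 and 9.21 (-0.10). Pde4c was below the limit of 1 FPKM, at 0.0166 and 0.0661. Once the median of all genes is subtracted, Pde4b was at -0.18, as far from 0 as the cyclases, which then ranged from 0.09 to 0.20. Of the 9 genes above the limit, 8 were above 0, as were 69.4% of all genes, and 7 were above the median of all genes. Their median was 0.17, and 0.09 after that subtraction. None of the 9 was 1.5-fold higher or lower on this scale, against 1.18% and 0.894% of all genes. The summed FPKM was 110.1 and 126.8 for the cyclases and 24.9 and 25.2 for the Pde4 genes. With no replicate tables these values describe the tables only.

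**Figure D4:**
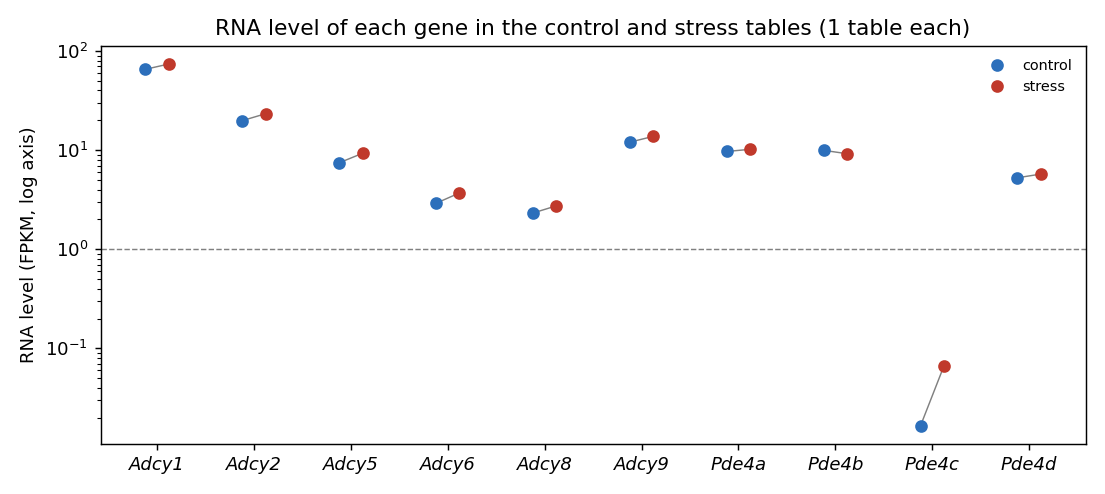
RNA level of each gene (FPKM, log axis, dashed line at 1) in the control and the stress table, 1 value each. The cyclases are all slightly higher in the stress table, and Pde4b alone is lower, at 9.96 and 9.21.

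The transcripts of Pde4b differed more than the gene as a whole. Pde4b has 5 transcripts in the tables. The 2 of shortest genomic span, which start 2285 bp apart and share their 3′ end, differed in opposite directions. NM_001177982 (19.7 kb span) stood at 4.07 FPKM without and 1.36 with stress (log2 difference -1.10), and NM_001177981 (17.4 kb span) at 3.11 and 5.23 (0.60). As a share of the gene's FPKM, the first had 40.8% without and 14.8% with stress, and the second 31.3% and 56.8%. The longest form, NM_019840, was at 1.94 and 2.38, NM_001177980 at 0.650 and 0.240, and NM_001177983 at 0.189 in the control while listed at 0 in the stress table. Cufflinks splits reads between forms that share exons, and the part of this in the Pde4b differences was not tested. Such opposite differences were common. Of 3224 genes with several transcripts, 540 (16.7%) had 1 transcript at least 1.5-fold higher and another at least 1.5-fold lower, and Pde4b was the only one of the 4 such genes here.

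Pde4a did not show this. Its shorter form NM_019798 was at 8.30 and 8.63 FPKM and its longer form NM_183408 at 1.40 and 1.56, or 14.4% and 15.3% of the gene. In Adcy8, NM_009623 was at 1.55 and 1.73 and NM_001291903 at 0.777 and 1.01. Nearly all RNA of Adcy9 was assigned to NM_009624. Of the 17 transcripts, 2 (Adcy1 and Adcy2) had an FPKM that its own deposited confidence limits did not contain, and the limits were therefore not used.

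**Figure D5:**
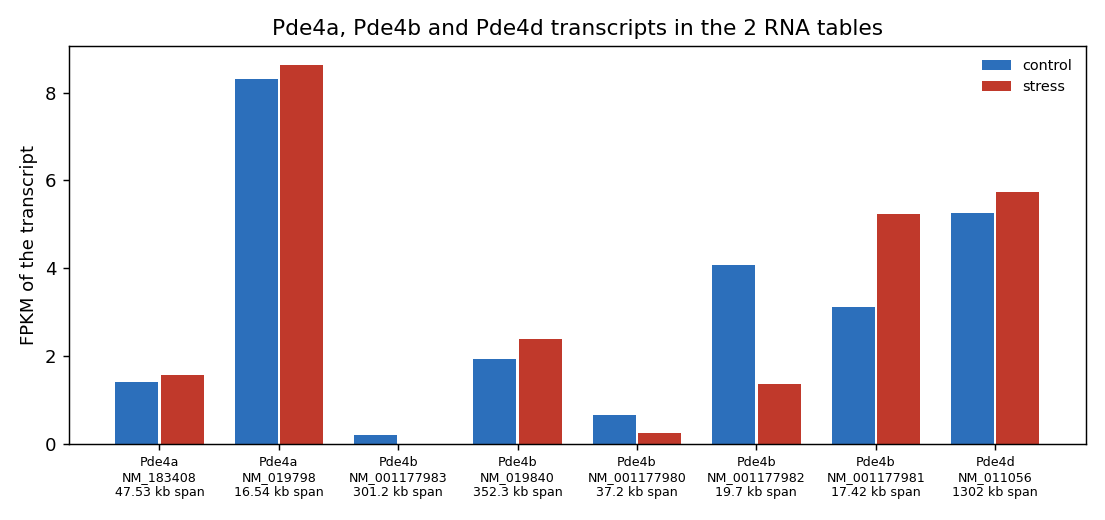
FPKM of each Pde4a, Pde4b and Pde4d transcript in the control and stress tables (bars from 0, 1 value each), with the genomic span of the transcript. The pair of Pde4b forms with the shortest genomic span differs in opposite directions, 4.07 to 1.36 and 3.11 to 5.23.

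Of 40 other genes of cAMP signalling, 30 reached a mean of 1 FPKM, with a median difference of 0.12, and 1 was 1.5-fold higher in the stress table and 0 were lower. The higher gene was Rapgef3, which encodes the cAMP-activated exchange factor Epac1, at 1.13 and 2.33 FPKM (0.65), near the limit of 1 FPKM. Pde7a, another cAMP phosphodiesterase gene, came next at 1.47 and 2.29 (0.42). The lowest were Pde8a, also a cAMP phosphodiesterase gene, at 2.79 and 2.58 (-0.08), and Gnai1, for an inhibitory G protein, at 22.1 and 21.2 (-0.06). Of the 30, 20 lay above the median of all genes.

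Of the same 40 genes, 0 held a stress-only region and 2 a control-only region, against 3.53% and 1.09% of all genes of at least 10 kb. One lay in Gnai2, for another inhibitory G protein, over exons 7 and 8 (9:107517645 to 107518654), and the other in intron 1 of Pde10a, a phosphodiesterase gene known from the striatum (17:8748473 to 8749938). Relative density was without overlap in 2 of the 40, both higher in control libraries. These were Prkar2a, a regulatory subunit of protein kinase A (0.664 ± 0.578 in stress and 2.09 ± 1.18 in control libraries, SD, n = 3 each), and Pde7b (1.55 ± 0.182 and 1.98 ± 0.241, n = 3 each). The background was 3.31% in the stress and 3.03% in the control direction.

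Markers of other tissues and cell types differed between the tables as well. Hippocampal markers were present in both tables, with summed FPKM of 69.0 (control) and 80.8 (stress) for 5 dentate gyrus genes, 42.7 and 41.2 for 4 CA1 genes and 5.79 and 7.19 for 2 CA3 genes. Medians were 0.19 for dentate gyrus, -0.06 for CA1, 0.09 for 5 neuronal genes, 0.17 for 6 astrocyte genes and 0.29 for 6 microglial genes. Of these, 6 of 6 astrocyte, 4 of 6 microglial and 4 of 5 dentate gyrus genes lay above the median of all genes. The count was 3 of 5 for neuronal and 0 of 4 for CA1 genes. Choroid plexus markers (8 genes) summed to 236.3 and 66.0 FPKM, and those of oligodendrocytes (8 genes) to 1493 and 1312. Markers of striatum, where Adcy5 is abundant, summed to 13.8 and 10.2 (6 genes) and those of thalamus to 29.8 and 38.4 (6 genes). Of the 6 thalamic genes 4 lay above the median of all genes, while Tcf7l2 (-0.05) and Lef1 (-0.25) were lower in the stress table. Above that median lay 1 of the 8 oligodendrocyte genes and 0 of the 3 striatal genes past the FPKM limit. None of these markers was listed at 0 in a table. The choroid plexus genes had a median difference of -1.10, and 0 of the 7 past the FPKM limit exceeded the median of all genes. Their part in the cyclase and Pde4 differences was not tested.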

How the data were processed

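5hmC was captured after an azide-glucose tag and biotin and sequenced as single reads, and RNA as paired reads, per the labels' protocols. For the 5hmC data the submitters' processing notes name Bowtie 0.12.9, edgeR and the build mm9. The authors deposited 1 peak list per library with a score per peak, and the peak names are those MACS gives. For RNA the authors deposited FPKM per RefSeq transcript in 1 table per group, made with TopHat 1.0.12, Cufflinks 2.1.1 and Cuffdiff 2.1.1, per the submitters' processing notes. The sources used here do not say how the 3 libraries were combined, which version called the peaks or against which background. Samples were grouped by title.

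With Python 3.11.15 and NumPy 2.4.6, a peak was counted in a gene when it overlapped the body (union of its RefSeq transcripts, mm9) by at least 1 bp. Overlapping peaks of the 6 lists were merged into regions, and exons and introns were numbered on the longest transcript. A control-only region had a peak in all 3 control lists and in no stress list. FPKM were summed per gene, with a pseudocount of 1 and a limit of 1 FPKM on the mean. As a check of the code, 200 control-only regions were planted in the real lists, at equal positions in every control list and away from other regions. All 200 were found, which follows from how they were planted and does not cover regions close to others. The members, gene lists and alternatives were chosen with earlier results of these data known. Named beside the members were the 2 highest and 2 lowest RNA differences of the pathway list and its genes with a region of 1 group only; Prkar2a and Pde7b were named after their values were seen. Promoter sequences are RefSeq's (GRCm38.p6), and no peak coordinates were placed on that build.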

Additional observations from a re-analysis of the deposited data

How the results depend on the processing

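The number of genes with groups apart in relative density, 3 with all peaks, was 1 when lists were cut to equal length by score, 0 with the higher-scoring 50% of each list, and 3 to 5 when any single library was left out. The share of all genes apart went the same way, from 6.35% to 4.11%, 4.17% and 9.96% to 12.96%. Without the divisor the number, 1 with all peaks (Adcy8), was 1 with lists of equal length (Pde4b), 0 with the higher-scoring 50% and 1 to 3 with a library left out (4.41% to 9.34% of all genes). The pooled Pde4 difference, mostly that of Pde4d by length, was -0.61 to -0.34 over the settings run. The difference of Pde4c was above 0 in all of them (0.234 to 2.73), and that of Pde4a on either side (-0.220 to 1.18). In both genes the groups overlapped in every setting, and Pde4c held only 3 peaks over the 6 lists. The 4 control-only regions were 3 with lists of equal length, 2 with the higher-scoring 50% and 4 to 10 with a library left out. With gaps of up to 500 bp bridged, an alternative chosen after seeing the data, they were 3, without the one in Adcy6. Of all regions in gene bodies 0.370% were control-only with all peaks. That share was 0.681% with lists of equal length and 0.431% with the higher-scoring 50%. It was 0.363% with gaps bridged and 0.524% to 1.75% with a library left out. Stress-only regions, 0 with all peaks, were 0 to 6 with a library left out, where fewer lists have to share a region. The stress-only share of all regions in gene bodies then went from 1.17% to between 1.63% and 5.38%. With lists of equal length the genes held 0 stress-only regions, against 0.998% of all regions in gene bodies. For the most abundant transcript in place of the gene sum, 1 gene, Pde4b, passed 1.5-fold (0.60), against 5.74% of all genes. No paired analysis was possible because the results come from no test, and the labels do not say that equal pool numbers mark a shared origin. The depth of single libraries is unknown, so a missing peak cannot be told from one below the score limit.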
